A study of Mus musculus with 9 samples.

Results

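The mouse genome's proteasome subunit, activator and assembly genes were followed in brain RNA after stroke surgery. Members were all genes measured on the array whose symbol is Psma, Psmb, Psmc, Psmd, Psme or Psmg followed by a number, with symbols taken from the RefSeq accession of each probe. The rule found 47 genes among 20145 named genes, on 58 probes, and used no measured value. RNA came from the brains of 9 adult male mice of the C57BL/6 strain, each read on its own 1-colour Agilent array, with 3 arrays per group. Sham mice (50 to 52 days old) had sham surgery, and no injection is stated for them. In MCAO mice (50 to 53 days old) an occlusion of the middle cerebral artery lasted 90 min, a model of ischaemic stroke with reperfusion, and these mice were given 1 µl of phosphate-buffered saline into the right lateral ventricle 3 h after blood flow returned. VEGF mice (50 to 53 days old) underwent that occlusion too and were given 1 µl of human VEGF-A165, a vascular growth factor, at 10 µg/ml by the same route and at the same time. Every brain was taken 24 h after reperfusion (for sham mice, the same time point is stated). Which part or side of the brain was used is not stated. The arrays of a group come from different mice.

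The proteasome is the protease that degrades ubiquitin-tagged proteins. Its 20S core is a barrel with inner beta rings, built from Psmb products, between outer alpha rings, built from Psma products, and Psmb5, Psmb6 and Psmb7 encode the catalytic beta subunits. The 19S regulatory particle, built from Psmc ATPases and Psmd non-ATPase subunits, caps the barrel, binds ubiquitin chains, and unfolds and threads in the substrate. Interferons induce 3 replacement catalytic subunits, Psmb8 for Psmb5, Psmb9 for Psmb6 and Psmb10 for Psmb7, which form the immunoproteasome that supplies peptides for MHC class I. Psme1 and Psme2 together form an interferon-induced activator cap, and Psme3 and Psme4 encode other caps. In the brain immunoproteasome subunits are known to be low in neurons and higher in microglia and infiltrating leukocytes.

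Promoter sequence is shown for the gene with the largest difference, Psmb8, for its inducible partner Psmb9, and for Psmb5, the constitutive subunit that Psmb8 replaces, because these 3 genes carry the contrast between inducible and constitutive subunits described next. Sequences are from RefSeq on GRCm38.p6, run 5′ to 3′ on the gene's strand and end at the base before the annotated start. Capitals mark matches, on either strand, to any of 3 motifs: the interferon response core GAAANNGAA bound by IRF factors, the antioxidant response element TGACNNNGC bound by Nrf1 and Nrf2, and the CCAAT box.
Psmb8, chr17:34197945-34198194, plus strand: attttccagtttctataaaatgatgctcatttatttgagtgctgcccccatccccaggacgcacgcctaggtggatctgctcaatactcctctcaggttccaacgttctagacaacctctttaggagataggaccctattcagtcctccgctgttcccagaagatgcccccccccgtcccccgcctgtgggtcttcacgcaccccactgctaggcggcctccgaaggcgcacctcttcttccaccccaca
Psmb9, chr17:34187331-34187555, minus strand: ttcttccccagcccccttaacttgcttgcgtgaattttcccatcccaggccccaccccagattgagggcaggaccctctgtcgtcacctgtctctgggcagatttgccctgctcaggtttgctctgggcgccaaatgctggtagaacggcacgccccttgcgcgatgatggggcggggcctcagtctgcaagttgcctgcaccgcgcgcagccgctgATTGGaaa
Psmb5, chr14:54617996-54618245, minus strand: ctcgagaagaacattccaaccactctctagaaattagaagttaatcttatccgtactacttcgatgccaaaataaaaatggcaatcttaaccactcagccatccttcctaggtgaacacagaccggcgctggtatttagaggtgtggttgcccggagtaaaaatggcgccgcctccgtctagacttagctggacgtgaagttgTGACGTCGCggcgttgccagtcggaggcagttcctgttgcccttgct
The Psmb8 window holds no match to these 3 motifs. The Psmb9 stretch is the 225 bases between its start and that of Tap1, the peptide transporter gene on the opposite strand, and holds a CCAAT box, read on the other strand, 8 to 4 bases before the Psmb9 start. The Psmb5 window holds an antioxidant response element 47 to 39 bases before the start. Among all 32851 windows of 250 bases before a start, 7.13% hold the interferon core, 10.2% the antioxidant element and 33.8% CCAAT. Of 42 such windows for 39 members, 3 hold the interferon core (Psmb3, Psmd4 and Psmd9), 5 the antioxidant element (Psmb5, Psmb6, Psmc6, Psmd9 and Psmd12) and 14 CCAAT. The members' shares of 7.14%, 11.9% and 33.3% were all near those of all windows.

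Of the 47 genes, 45 had a probe well above background and were tested, and these 45 met that criterion on every one of the 9 arrays. The 2 not tested were Psma8, a testis alpha subunit whose probe was well above background on 2 arrays, and Psmb11, the thymus beta subunit, on none. On each array 73.0% to 81.8% of spots were well above background, and over all 30824 genes tested the median 95% half-width of a difference was 0.713 on the log2 scale. Of these 30824, 17577 had a gene symbol and the rest had none, and all are called genes here. Levels below are log2 processed intensity minus the array's 75th percentile, so 0 is the brightness of the probe at that rank. They compare arrays for 1 probe and do not rank genes against each other. Differences are between group means on the same log2 scale, with the standard error (SE) of the limma fit, and a gene was called where the Benjamini-Hochberg adjusted p over all 30824 genes was under 0.05. MCAO array 1 and VEGF array 1 stood apart from the other ischaemic arrays: the median over 10 neuronal markers lay at -2.19 and -2.37 relative to the sham mean there, against -0.58 to -0.29 on the other 4. They were also the dimmest arrays, with a 75th-percentile intensity of 923 and 848 against 1420 to 2070 on the others. The 73.0% of spots well above background was that of VEGF array 1. MCAO array 1 was also scanned on another day and without spatial detrending. Sham RNA occupied 1 slide and the RNA of both ischaemic groups the other, so ischaemia, the injection and the slide cannot be told apart in a comparison with sham. In bulk RNA, fewer cells of a type and less RNA per cell cannot be told apart either.

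Across the 45 genes, the inducible catalytic subunit Psmb8 was about 6-fold higher in both ischaemic groups, and Psme4 was 1.97-fold higher in the MCAO group. In MCAO minus sham, 2 of 45 members were called, both higher, against 2.28% of all genes called higher. In VEGF minus sham, 1 of 45 was called, Psmb8, against 2.06% of all genes called higher. By limma 0 of 45 were called lower in either comparison. Over all 30824 genes, 165 were called lower in MCAO minus sham and 110 in VEGF minus sham. These are too few to make 0 of 45 a result about the family. Also, 0 lower members had an unadjusted p under 0.05, for which the share of lower genes over all genes was not counted. Between VEGF and MCAO, limma called 0 of 45 members (0.0% of all genes were called higher, and 2 genes were called lower). There 0 of 45 had an unadjusted p under 0.05, against 2.77% of all genes, a share too small to make this a result about the family. Both comparisons with sham use the same sham arrays, so their values stand side by side here without being set against each other.
Most other members had small differences above 0 that did not pass the test. The median difference over the 45 members was 0.19 in MCAO minus sham, where that over all genes was -0.04, and 0.29 in VEGF minus sham, where that over all genes was -0.12. A difference above 0 was found for 36 of 45 members in MCAO minus sham (46.8% of all genes) and 39 of 45 in VEGF minus sham (42.4% of all genes). Under the other 4 scalings and background settings these counts ran from 31 to 37 and from 36 to 44. The MCAO median rested in part on array 1: without it the median was 0.10 (-0.10 over all genes) and 29 of 45 members were above 0, and with scaling on the array median it was 0.11 (-0.12 over all genes). The 3 MCAO values all exceeded the 3 sham values for 19 of 45 members, against 19.6% of all genes, and lay below them for 0 members, against 20.7% of all genes. In the VEGF group 28 of 45 members lay above every sham value, against 18.2% of all genes, and 0 below, against 23.9%. Single members other than Psmb8 and Psme4 did not pass the test. An unadjusted p under 0.05 was reached by 6 of 45 in MCAO minus sham (21.4% of all genes) and by 13 of 45 in VEGF minus sham (23.5% of all genes).

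**Figure D1:**
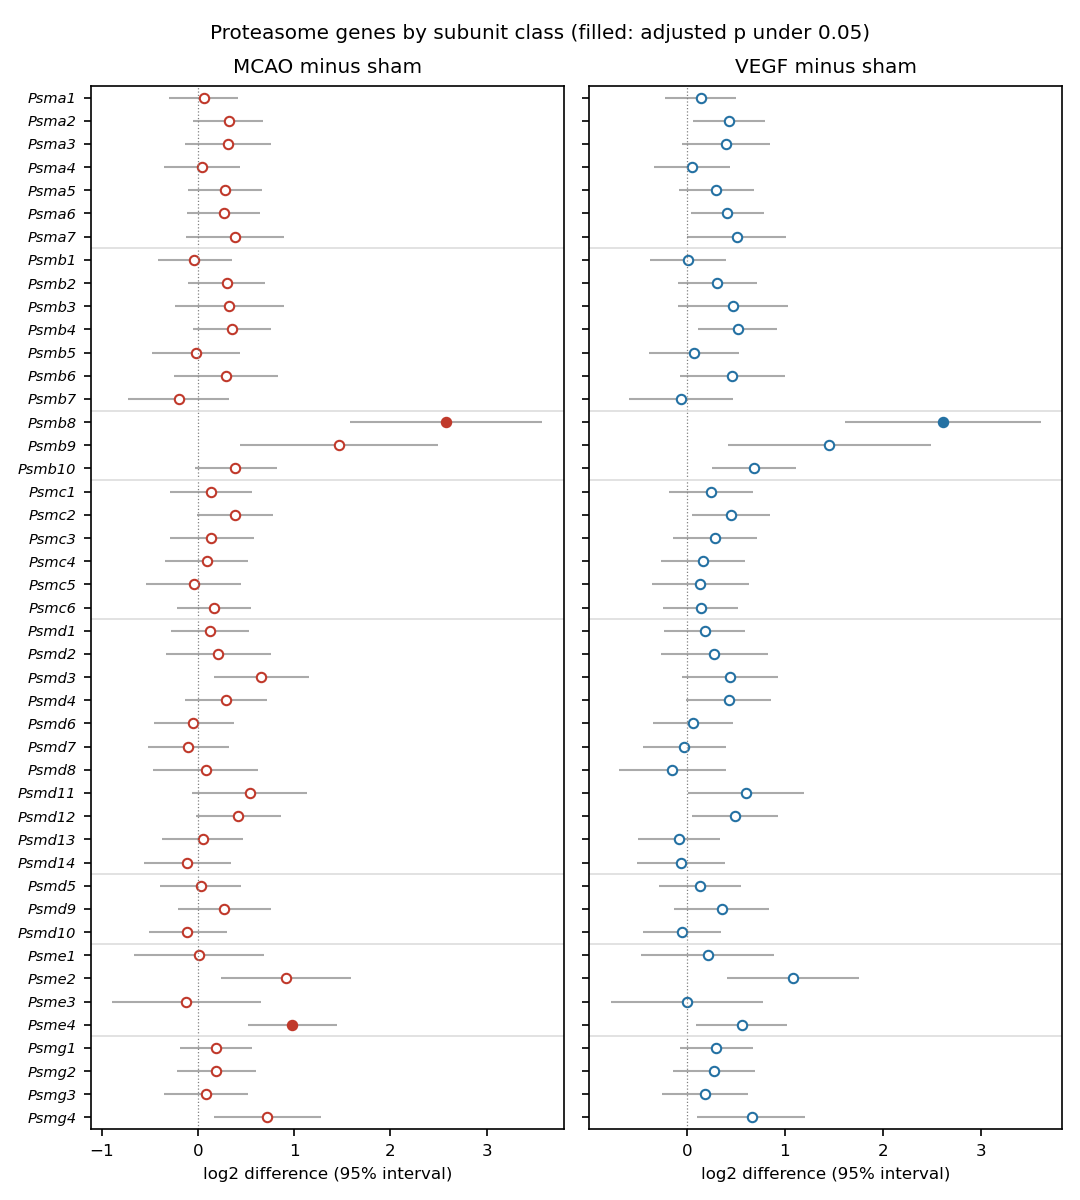
Difference from sham for each of the 45 tested proteasome genes, MCAO on the left and VEGF on the right, in log2 units with the 95% interval of the limma fit. Genes are grouped from top to bottom as alpha ring, constitutive beta ring, inducible beta subunits, 19S ATPases, 19S non-ATPase subunits, 19S assembly chaperones, activators and 20S assembly chaperones; filled points (Psmb8 in both panels, Psme4 in MCAO) have an adjusted p under 0.05.

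The 3 inducible catalytic subunits lay above every sham array in both ischaemic groups, Psmb8 most and Psmb10 least. Of all genes, 19.6% lay above every sham array in MCAO and 18.2% in VEGF. Psmb8 had levels of -0.90, -0.88 and -1.22 in sham, 2.09, 1.12 and 1.52 in MCAO, and 2.54, 1.54 and 0.75 in VEGF. Groups did not overlap, and the highest value of each ischaemic group was that of array 1. The difference from sham was 2.58 ± 0.44 (SE, n = 3 arrays per group; 5.97-fold; adjusted p = 0.0208, limma) for MCAO and 2.61 ± 0.44 (6.11-fold; adjusted p = 0.0208) for VEGF. Without arrays 1 of both ischaemic groups it was 2.32 ± 0.27 (adjusted p = 0.00361) and 2.14 ± 0.27 (adjusted p = 0.00613), a choice made after the values were seen. Leaving out any one sham array took both Psmb8 calls away, with adjusted p of 0.102, 0.0801 and 0.0999 for MCAO without sham array 1, 2 and 3, and 0.0993, 0.0847 and 0.103 for VEGF, and so did leaving out MCAO array 3 for MCAO (0.0693), while the difference stayed between 2.14 and 3.04 whichever array was left out.
Psmb9 had levels of -1.06, -1.15 and -1.29 in sham, 0.84, -0.15 and 0.21 in MCAO, and 1.33, 0.05 and -0.52 in VEGF. All 6 ischaemic values exceeded the sham values, and array 1 was again the highest of each group. The differences of 1.47 ± 0.45 in MCAO and 1.45 ± 0.45 in VEGF did not pass (adjusted p = 0.127 in both, limma). With both arrays 1 left out they were smaller, 1.20 ± 0.21 and 0.93 ± 0.21, and passed (adjusted p = 0.0123 and 0.0292). In that fit 9.78% and 8.71% of all genes were called higher, and it called 4 members in MCAO minus sham (Psmb8, Psmb9, Psme2 and Psme4) and 7 in VEGF minus sham (Psmb4, Psmb8, Psmb9, Psmb10, Psmc2, Psmd4 and Psme2). Between VEGF and MCAO it called 0 members, with 0.00649% of all genes called higher. Leaving out single arrays, Psmb9 passed for MCAO without VEGF array 1 (adjusted p = 0.0232). That array is not in the comparison, the difference stayed at 1.47, and calls over all genes rose from 867 to 2576.
Psmb10 had levels of 4.05, 4.32 and 4.28 in sham, 4.62, 4.40 and 4.81 in MCAO, and 4.83, 4.83 and 5.04 in VEGF. The lowest MCAO value was just above the highest sham value, while array 1 was not the highest of either ischaemic group. Its differences were 0.39 ± 0.19 in MCAO (adjusted p = 0.263) and 0.68 ± 0.19 in VEGF (adjusted p = 0.0981, limma). The VEGF difference passed without MCAO array 1 (adjusted p = 0.0496, limma), a fit in which calls over all genes rose from 746 to 3255.

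None of the constitutive counterparts of these subunits was called in either comparison. Psmb5 had levels of 6.19, 6.36 and 6.37 in sham, 6.65, 6.10 and 6.11 in MCAO and 6.44, 6.38 and 6.31 in VEGF. Its differences of -0.02 ± 0.20 in MCAO and 0.07 ± 0.20 in VEGF have 95% intervals of -0.48 to 0.44 and -0.39 to 0.53, with overlapping groups. Psmb6 had levels of 5.58, 5.67 and 5.58 in sham, 6.40, 5.72 and 5.59 in MCAO and 6.22, 6.00 and 6.00 in VEGF. MCAO array 1 alone was far from sham, whereas all 3 VEGF values lay above it. Its differences were 0.29 ± 0.24 and 0.46 ± 0.24 (adjusted p = 0.486 and 0.261). Psmb7 had levels of 3.86, 3.32 and 3.26 in sham, 3.33, 3.39 and 3.10 in MCAO and 3.14, 3.52 and 3.60 in VEGF. The sham arrays themselves spanned nearly the whole range, with sham array 1 the highest of the 9, and the differences were -0.20 ± 0.23 and -0.06 ± 0.23.
The exchange of subunits was read as the inducible minus the constitutive log2 value within each array, set to 0 at the sham mean, which shows unequal change of the 2 probes and not the amounts of either subunit. Psmb8 minus Psmb5 was 2.75, 2.33 and 2.72 in MCAO and 3.41, 2.47 and 1.74 in VEGF, against 0.22, 0.07 and -0.29 in sham. MCAO array 1, the highest of its group for Psmb8 itself, lay beside MCAO array 3 on this measure, and the mean change was 2.60 in MCAO and 2.54 in VEGF. Psmb9 minus Psmb6 was 1.22, 0.91 and 1.41 in MCAO and 1.89, 0.82 and 0.26 in VEGF, against 0.14, -0.05 and -0.09 in sham. Its mean change was 1.18 in MCAO and 0.99 in VEGF, and VEGF array 3 was only just outside the sham range. Psmb10 minus Psmb7 was 0.55, 0.27 and 0.97 in MCAO and 0.95, 0.58 and 0.70 in VEGF, against -0.55, 0.26 and 0.29 in sham. The MCAO group overlapped with sham for this pair and the VEGF group did not, with mean changes of 0.60 and 0.74. In 2-sided exact permutation tests over 3 against 3 arrays, where 0.1 is the smallest p possible, 5 of the 6 comparisons with sham gave p = 0.1 and Psmb10 minus Psmb7 in MCAO gave p = 0.2. Adjusted over the 9 comparisons of pairs these were 0.18 and 0.3. Between VEGF and MCAO the changes were -0.06, -0.19 and 0.15 (exact permutation p = 1.0, 0.8 and 0.5).

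**Figure D2:**
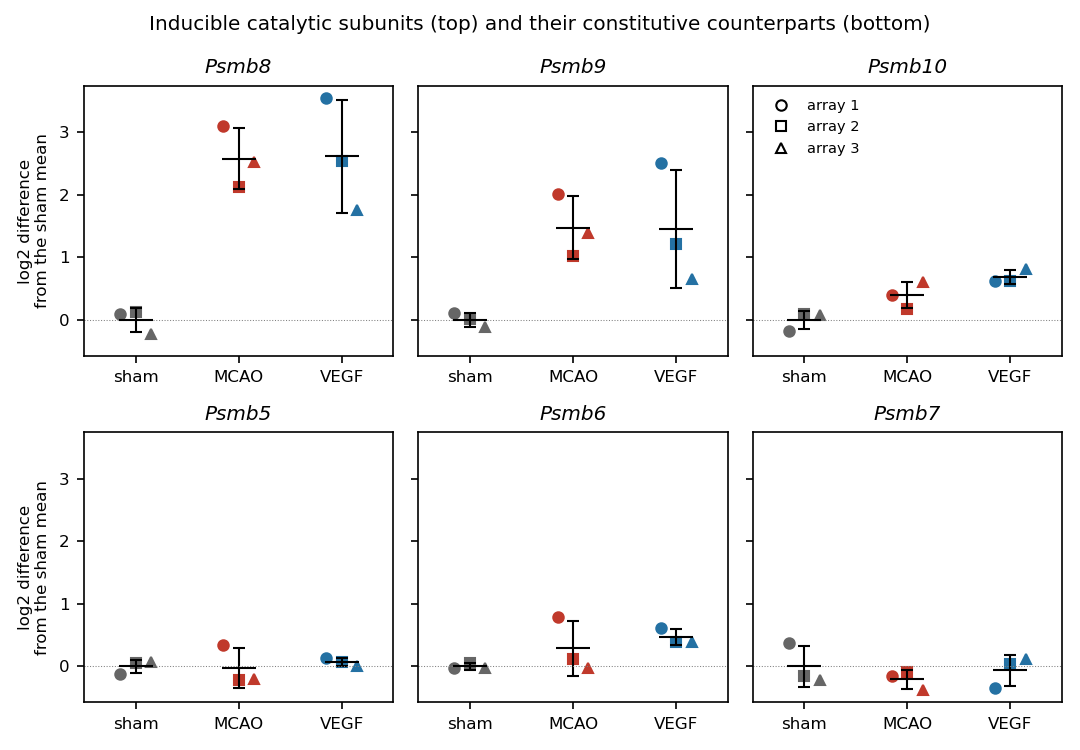
Log2 difference of each array from the sham mean for the inducible catalytic subunits (top row) and the constitutive subunits they replace (bottom row). Symbols mark array 1, 2 and 3 of each group and bars the mean ± SD of 3 arrays; Psmb8 and Psmb9 are above sham on all 6 ischaemic arrays, with array 1 highest in each group, whereas Psmb5 and Psmb7 overlap with sham.

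Among the activators, Psme4 and Psme2 lay above all sham values in both ischaemic groups and Psme1 and Psme3 did not. Of all genes, 19.6% did so in MCAO and 18.2% in VEGF. Psme4 encodes a cap that opens the core without ubiquitin or ATP. It had levels of -1.47, -1.41 and -1.64 in sham, -0.50, -0.51 and -0.56 in MCAO, and -0.64, -1.29 and -0.92 in VEGF. The 3 MCAO arrays, the outlying array 1 included, lay close together, and every VEGF value lay between the sham and the MCAO values. The difference was 0.98 ± 0.20 in MCAO (1.97-fold, adjusted p = 0.0439, limma) and 0.56 ± 0.20 in VEGF (adjusted p = 0.165). VEGF minus MCAO was -0.42 ± 0.20, with a 95% interval of -0.89 to 0.04 (unadjusted p = 0.07, adjusted p = 1.0, limma), so the groups did not overlap but the difference was not called. A second Psme4 probe gave 0.85, 0.57 and -0.28 for the same 3 comparisons. The MCAO call was close to the threshold: adjusted p ran from 0.000554 to 0.0667 over 12 other settings, 7 of which kept the call, and it was lost with the replicate number as a block (adjusted p = 0.0544) and without any one sham or MCAO array or VEGF array 3 (adjusted p from 0.058 to 0.175), while the difference stayed between 0.84 and 1.03.
Psme2, the beta chain of the interferon-induced cap, had levels of 3.49, 3.71 and 3.63 in sham, 4.93, 4.25 and 4.38 in MCAO, and 5.26, 4.57 and 4.25 in VEGF. Its differences were 0.91 ± 0.30 (1.88-fold, adjusted p = 0.139) and 1.08 ± 0.30 (2.12-fold, adjusted p = 0.0977, limma), with no overlap with sham and array 1 highest in each group. A second probe for Psme2 gave 0.72 and 0.79. Leaving out VEGF array 1 brought Psme2 past the threshold for MCAO (adjusted p = 0.0492), and leaving out MCAO array 1 did so for VEGF (0.0437). Neither array is part of the comparison that passed, and the differences stayed at 0.91 and 1.08. In these fits calls over all genes rose from 867 to 2576 in MCAO and from 746 to 3255 in VEGF. Psme1, the alpha chain of the same cap, had levels of 3.92, 3.54 and 3.43 in sham, 4.09, 3.47 and 3.38 in MCAO and 4.32, 3.79 and 3.42 in VEGF. Here array 1 was the highest of every group, sham included, and the groups overlapped, with differences of 0.01 ± 0.30 and 0.21 ± 0.30. Psme3, which encodes a nuclear cap, had levels of 0.87, 0.24 and 0.56 in sham, 1.03, 0.02 and 0.26 in MCAO and 1.08, 0.22 and 0.37 in VEGF. It also was highest on array 1 of each group, and its differences were -0.12 ± 0.34 and 0.00 ± 0.34.

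**Figure D3:**
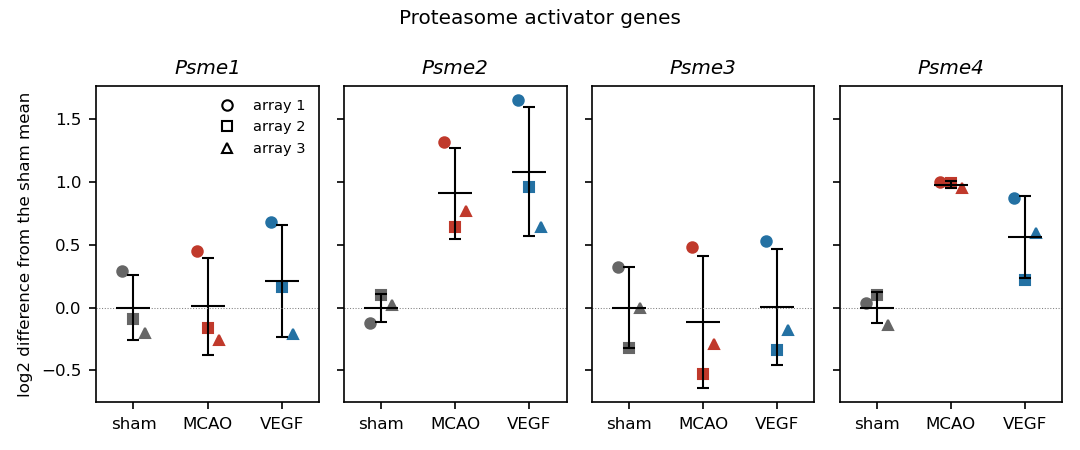
Log2 difference of each array from the sham mean for the 4 proteasome activator genes, with symbols for array 1, 2 and 3 of each group and bars for the mean ± SD of 3 arrays. For Psme4 the 3 MCAO arrays lie together at 0.95 to 1.00 above the sham mean and the VEGF arrays at 0.22 to 0.87, whereas for Psme1 and Psme3 array 1 is the highest in all 3 groups.

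The constitutive core showed small differences, and none of its genes was called. The 7 alpha ring genes had differences from 0.04 to 0.39 in MCAO (median 0.28, 7 of 7 above 0) and from 0.05 to 0.51 in VEGF (median 0.40, 7 of 7 above 0). Groups did not overlap with sham for 5 of 7 alpha genes in MCAO and 6 of 7 in VEGF, all higher, against 19.6% and 18.2% of all genes. Psma7 had the highest difference of the alpha ring, with levels of 4.57, 4.84 and 4.87 in sham, 5.53, 4.95 and 4.96 in MCAO and 5.46, 5.20 and 5.14 in VEGF. All 6 ischaemic values exceeded sham, with array 1 highest, and its differences were 0.39 ± 0.22 and 0.51 ± 0.22 (adjusted p = 0.333 and 0.212). Psma4 had the lowest, with levels of 3.33, 3.16 and 3.10 in sham, 3.44, 3.19 and 3.10 in MCAO and 3.26, 3.26 and 3.22 in VEGF. Those ranges overlapped, the differences were 0.04 ± 0.17 and 0.05 ± 0.17, and a second Psma4 probe gave -0.25 and -0.23.
Of the 7 constitutive beta genes, 4 were above 0 in MCAO (median 0.29, range -0.20 to 0.35) and 6 in VEGF (median 0.31, range -0.06 to 0.52), with none called. Psmb4, a structural beta subunit, had the highest difference, with levels of 5.51, 5.56 and 5.52 in sham, 6.15, 5.78 and 5.71 in MCAO and 6.06, 6.04 and 6.04 in VEGF. Sham arrays lay close to each other, as did VEGF arrays, and all ischaemic values were above sham. The differences of 0.35 ± 0.18 (adjusted p = 0.285) and 0.52 ± 0.18 (adjusted p = 0.148, limma) were not called. The VEGF difference passed without MCAO array 1 (adjusted p = 0.046, limma), a fit in which calls over all genes rose from 746 to 3255.
By array, the median over the 14 core genes was 0.40, 0.15 and 0.07 above the sham mean in MCAO and 0.38, 0.35 and 0.27 in VEGF, while sham arrays lay at -0.03, 0.05 and -0.02. MCAO array 1 was well above the other 2 MCAO arrays. The median over all genes was 0.21 on MCAO array 1 and between -0.11 and -0.07 on the other 5 ischaemic arrays.

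**Figure D4:**
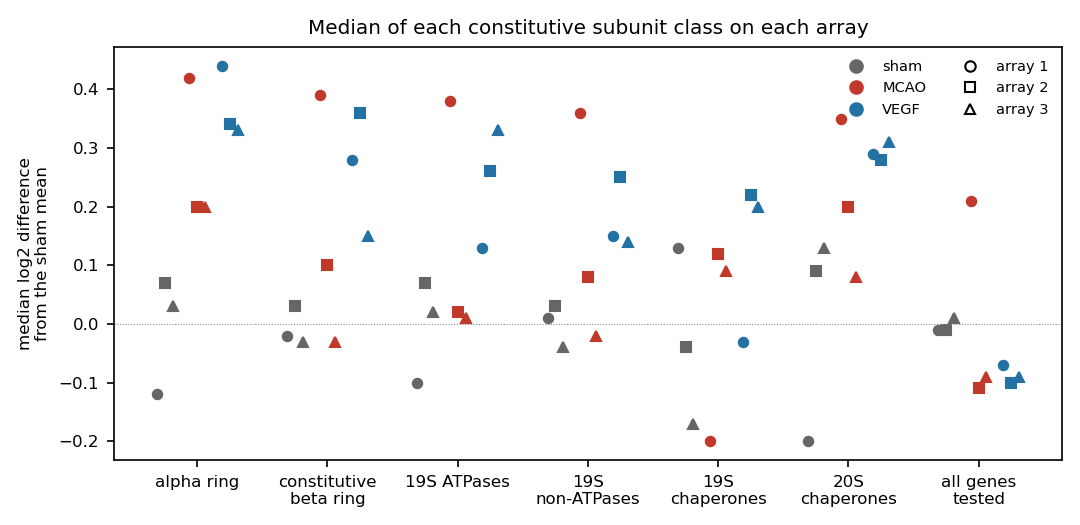
Median log2 difference from the sham mean over the genes of each constitutive class, one point per array, coloured by group and shaped by array number, with the median over all genes tested at the right. MCAO array 1 is the highest MCAO array in every class but the 19S chaperones, where it is the lowest, and the alpha ring medians of all 6 ischaemic arrays (0.20 to 0.44) exceed those of the sham arrays (-0.12 to 0.07).

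The 17 genes of the 19S regulatory particle had a median difference of 0.14 in MCAO (13 of 17 above 0) and 0.18 in VEGF (13 of 17 above 0), and none was called. Among the 6 ATPases, Psmc2 had the highest difference, with levels of 4.62, 4.87 and 4.83 in sham, 5.27, 5.11 and 5.10 in MCAO and 5.06, 5.32 and 5.29 in VEGF. No ischaemic value reached down to sham, and its differences were 0.39 ± 0.17 (adjusted p = 0.243) and 0.45 ± 0.17 (adjusted p = 0.178); a second Psmc2 probe gave 0.45 and 0.53. Psmc5 had the lowest, with levels of 4.80, 4.90 and 4.76 in sham, 4.66, 4.83 and 4.84 in MCAO and 4.52, 5.15 and 5.19 in VEGF. Its arrays 1 were the lowest of each ischaemic group, and the differences were -0.04 ± 0.22 and 0.13 ± 0.22.
Among the 11 non-ATPase subunits, Psmd3, a lid subunit, had the highest difference in MCAO minus sham, with levels of 4.93, 5.29 and 5.01 in sham, 6.09, 5.53 and 5.59 in MCAO and 5.63, 5.36 and 5.56 in VEGF. The differences were 0.66 ± 0.21 (1.58-fold, adjusted p = 0.139) and 0.44 ± 0.21 (adjusted p = 0.245), with no overlap with sham. Psmd14, the lid enzyme that removes ubiquitin chains from substrates, had the lowest in MCAO minus sham, with levels of 2.24, 1.89 and 1.93 in sham, 1.85, 2.12 and 1.77 in MCAO and 1.75, 2.06 and 2.08 in VEGF. Its groups overlapped, with sham array 1 the highest of the 9, and its differences were -0.11 ± 0.20 and -0.06 ± 0.20. The other 9 lay between -0.10 and 0.54 in MCAO and between -0.15 and 0.60 in VEGF. The lid subunits Psmd11 and Psmd12 were at the upper end (0.54 and 0.42 in MCAO, 0.60 and 0.49 in VEGF). In VEGF both were above Psmd3. A second Psmd12 probe gave only 0.06 in MCAO and 0.20 in VEGF. In VEGF minus sham the lowest were Psmd8 (-0.15) and Psmd13 (-0.08).

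Assembly chaperones are not part of the finished proteasome. The 3 chaperones of the 19S base, Psmd5, Psmd9 and Psmd10, had a median difference of 0.03 in MCAO and 0.13 in VEGF and overlapped with sham in both. Psmd9 was the highest, with levels of 0.60, 0.21 and 0.15 in sham, 0.89, 0.49 and 0.41 in MCAO and 0.57, 0.68 and 0.79 in VEGF, and differences of 0.27 ± 0.21 and 0.36 ± 0.21. A second Psmd9 probe gave 0.12 and 0.13. Psmd10 was the lowest, with levels of 0.42, 0.43 and 0.17 in sham, 0.14, 0.31 and 0.25 in MCAO and 0.26, 0.47 and 0.15 in VEGF, and differences of -0.11 ± 0.18 and -0.05 ± 0.18. For both genes sham arrays spread about as widely as the ischaemic ones.
The 4 chaperones of the 20S core lay above 0 in both comparisons, with a median of 0.19 in MCAO and 0.29 in VEGF, and all 4 lay above every sham value in VEGF (18.2% of all genes). Psmg4 had the highest difference, with levels of -0.37, 0.14 and 0.11 in sham, 0.93, 0.66 and 0.46 in MCAO and 0.95, 0.56 and 0.34 in VEGF. All ischaemic values exceeded sham and both arrays 1 were highest, but the differences of 0.72 ± 0.24 (1.65-fold, adjusted p = 0.151) and 0.66 ± 0.24 (1.58-fold, adjusted p = 0.168) were not called. Psmg3 had the lowest, with levels of 1.37, 1.69 and 1.71 in sham, 1.92, 1.59 and 1.50 in MCAO and 1.80, 1.74 and 1.77 in VEGF, and differences of 0.08 ± 0.19 and 0.18 ± 0.19.
Psma8, the testis subunit, had a level of -0.34 on VEGF array 1 and between -9.12 and -6.21 on the other 8 arrays. Psmb11, the thymus subunit, lay between -9.30 and -7.60 on all 9. Both are outside the counts above.

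Genes around the proteasome were counted in lists drawn up by function. Of 16 measured shuttle and proteasome-associated genes, limma called 0 in any comparison. The maturation factor Pomp was 0.17 and 0.34 above sham in MCAO and VEGF. An unadjusted p under 0.05 was found for 4 in MCAO, 5 in VEGF and 0 between VEGF and MCAO (21.4%, 23.5% and 2.77% of all genes). In each comparison with sham 2 of these were lower, Ubqln2 (-1.27 and -1.11) and Ubqln4 (-0.82 and -0.83). The list median was 0.12 in MCAO and 0.11 in VEGF. Of 6 ubiquitin and ubiquitin-activating genes 0 were called either (0 and 1 with an unadjusted p under 0.05 in MCAO and VEGF), and their medians were 0.17 and 0.39. Of 6 genes for the transcriptional control of proteasome genes 0 were called. In each ischaemic group 4 had an unadjusted p under 0.05, 1 of them lower. Nfe2l1, whose product Nrf1 drives the recovery of proteasome genes, was at -0.11 ± 0.18 and 0.03 ± 0.18, while Nfe2l2, which encodes Nrf2, was at 1.46 ± 0.36 (adjusted p = 0.0759) and 1.55 ± 0.36 (adjusted p = 0.0691, limma).
Of 11 measured class I antigen processing genes, which use the peptides that immunoproteasomes make, 2 were called higher in MCAO, Tap2 (2.17 ± 0.39, adjusted p = 0.025) and the class I activator Nlrc5 (3.37 ± 0.46, adjusted p = 0.00872), and Nlrc5 in VEGF (2.76 ± 0.46, adjusted p = 0.02, limma). The list median was 1.60 in MCAO and 1.57 in VEGF. The chaperones Calr (-0.06 in MCAO, -0.03 in VEGF) and Canx (-0.03 and 0.03) were near 0. By array it was 2.17, 1.27 and 1.35 in MCAO and 2.58, 1.27 and 0.78 in VEGF, in the same order of arrays as Psmb8 and Psmb9 in each group. Tap1, which shares its promoter stretch with Psmb9, was at 1.98 ± 0.46 in MCAO and 1.75 ± 0.46 in VEGF (adjusted p = 0.0614 and 0.0888). Of 13 measured interferon response genes, 7 were called higher in MCAO and 4 in VEGF, with medians of 2.40 and 1.97; Gbp2, an interferon-induced GTPase, was at 2.63 ± 0.23 (adjusted p = 0.00132) and 2.59 ± 0.23 (adjusted p = 0.00142), and the chemokine Cxcl10 at 5.16 ± 0.70 (adjusted p = 0.00891) and 5.50 ± 0.70 (adjusted p = 0.00777). Ifng was not above background, and no gene of these 5 lists was called lower in any comparison.

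Some leukocyte markers were higher in the ischaemic groups, as Psmb8 was, and others were not. Their part in the Psmb8 difference was not tested. Of 9 measured microglia and macrophage markers, 4 were called higher in each ischaemic group, and their summed linear level ran from 86.5 to 109 in sham, 134 to 186 in MCAO and 116 to 281 in VEGF, where 1 is the intensity at the array's 75th percentile. Both monocyte markers measured, Ccr2 and Plac8, were called in each group, with sums of 0.0586 to 0.0696 in sham, 1.03 to 4.38 in MCAO and 0.839 to 3.40 in VEGF. Neutrophil markers were called for 3 of 7 in each group, with sums of 3.07 to 3.75 in sham, 17.5 to 132 in MCAO and 19.9 to 107 in VEGF. Of 9 lymphocyte markers 2 were called in each group, Cd3d and Gzmb, but the sums overlapped (9.99 to 12.5 in sham, 9.75 to 12.2 in MCAO and 10.3 to 12.4 in VEGF), and Cd3g was not above background. Endothelial markers, 8 measured, had none called and sums of 29.0 to 30.4 in sham, 47.7 to 114 in MCAO and 46.9 to 186 in VEGF. Neuronal markers, 10 measured with none called, had sums of 423 to 452 in sham, 108 to 336 in MCAO and 120 to 363 in VEGF. On array 1 of both ischaemic groups, where Psmb8, Psmb9 and Psme2 were highest, the median of each of these 6 lists was also farther from sham than on the other 2 arrays of the group. Astrocyte markers, 6 measured, had sums of 256 to 271 in sham, 284 to 294 in MCAO and 288 to 512 in VEGF. Gfap was called in VEGF (2.06 ± 0.40, adjusted p = 0.0366, limma) and narrowly missed the threshold in MCAO (1.84 ± 0.40, adjusted p = 0.0508). The 6 oligodendrocyte markers, with none called, spread widely within sham (sums of 73.3 to 285) and ran from 189 to 532 in MCAO and from 184 to 256 in VEGF.

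VEGF treatment was compared with vehicle within ischaemic mice, on 1 slide. Over the 45 members the median difference was 0.08, against -0.02 over all genes, with a range from -0.42 (Psme4) to 0.29 (Psmb10). It was 0.18 without MCAO array 1 and 0.01, with 25 of 45 members above 0, without MCAO array 3. A difference above 0 was found for 38 of 45, a count that was 27 with quantile normalization and with the deposited values and 42 with scaling on the array median, which by itself moved the median over all genes from -0.02 to 0.14. The 3 VEGF values exceeded the 3 MCAO values for 3 members, Psma1, Psma6 and Psmb10, against 2.32% of all genes, and lay below them for 1, Psme4, against 3.48%. The count of 3 depended on the arrays and the scaling: it was 22 (12.2% of all genes) without MCAO array 1, 10 (10.0%) without VEGF array 1, 29 (22.1%) without both, 14 (6.97%) with scaling on the array median, and 0 with normexp background correction, quantile normalization or the deposited values (2.37% to 2.89%). Psmb8 was at 0.03 ± 0.44 with a 95% interval of -0.97 to 1.03, Psmb9 at -0.02 ± 0.45 (-1.05 to 1.02), Psmb10 at 0.29 ± 0.19 (-0.14 to 0.72) and Psme2 at 0.17 ± 0.30 (-0.50 to 0.85). The constitutive core had 14 of 14 genes above 0, from 0.01 to 0.17, smaller than the shifts between scalings.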

How the data were processed

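Total RNA of 9 mouse brains, 3 per group, was labelled with Cy3 (200 ng each) and read on 1-colour arrays. Per the file headers, Agilent Feature Extraction 10.7.1.1 made the deposited intensity values by background subtraction, spatial detrending (a deposited ratio around 1 per spot, not applied to MCAO array 1) and surrogates near background. The authors also deposited a table of log2 values made alike between arrays (each column's median is 6.98); its method and centring are not given in the sources used here. Here log2 processed intensity minus the array's 75th percentile was used, over 55681 probes that are not controls. A probe was kept where it was well above background on all arrays of a group (43906 probes), and the brightest probe stood for a gene. The fit was limma (lmFit and eBayes) on all 9 arrays without covariates, in R 4.3.3 with limma 3.58.1. Benjamini-Hochberg adjustment was over 30824 genes or accessions. The fit was tested on simulated data with independent noise of equal spread on all arrays for a gene. That test held no outlying arrays like MCAO and VEGF array 1. The limma p-values set a difference between groups against the spread between mice within groups, pooled over all 3 groups, outlying arrays included. The slide, which separates sham from the ischaemic groups, is not part of that spread. The small number of mice limits the precision.

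Genes with values by array were those called, the catalytic subunits, Psme1, Psme2, and the highest and lowest MCAO difference of each class. Members and lists were chosen with earlier results of these data known. Promoter windows on chromosome 18 were left out, and 1 gene of the interferon list and 1 motif are not reported here. Deviations of same-numbered MCAO and VEGF arrays had correlations of 0.59, 0.23 and 0.56. For different numbers they ran from -0.56 to 0.39. MCAO array 2 with VEGF array 3 gave 0.39 and MCAO array 3 with VEGF array 2 gave 0.23. Same-numbered sham arrays did not deviate with either group (-0.11 to 0.15). The study's design speaks of 3 independent experiments, so the number may pair MCAO with VEGF. Deviations were from the mean of 3 arrays, so the outlying array 1 of both groups moves arrays 2 and 3 the other way. The 3 same-numbered correlations are therefore not independent and do not settle the pairing. The main fit and the exact tests did not use such a pairing.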

Additional observations from a re-analysis of the deposited data

How the results depend on the processing

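The direction of every named gene with a difference larger than its standard error, and of the family's median, was kept in all 21 other settings tried: other background corrections, scalings, filters, probe rules, covariates, weights, and arrays left out. The call counts did move. In MCAO minus sham the 2 calls became 1 with normexp background correction, scaling on the array median, no filter on dim probes, the mean of a gene's probes or the replicate block, 3 with only the compared groups, 9 with array weights (by the gene-by-gene method, since the default did not converge), 4 without MCAO and VEGF array 1, and 0 to 4 with single arrays left out. In VEGF minus sham the 1 call became 2 with scaling on the array median, 11 with array weights, 7 without MCAO and VEGF array 1, and 0 to 4 with single arrays left out. Array weights also raised the calls over all genes to 12432 and 7293 from 867 and 746, giving MCAO and VEGF array 1 weights of 0.116 and 0.143. The replicate block, which ties same-numbered arrays of all groups, sham included, left 0 members called in VEGF minus MCAO. It changed no other call than that of Psme4 in MCAO minus sham.

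The family's median in MCAO minus sham, 0.19, was 0.09 with array weights, 0.11 with scaling on the array median, 0.10 without MCAO array 1, and 0.10 to 0.27 over all single arrays left out. In VEGF minus sham it was 0.25 with quantile normalization and with the deposited table, 0.37 with scaling on the array median, and 0.25 to 0.30 with single arrays left out; in VEGF minus MCAO it was 0.24 with scaling on the array median, 0.02 with quantile normalization and with the deposited table, 0.17 with array weights, and 0.01 to 0.18 with single arrays left out. The cause of these shifts was not tested. No exchange pair reversed beyond its spread. With 3 arrays a group, no exact test over arrays could fall below 0.1.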
